A study of Mus with 8 samples.

Results

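Transcripts of 9 complement genes were followed in 8 subcutaneous tumours. They were the 3 chains of C1q (C1qa, C1qb and C1qc), the classical-pathway components C4b and C2, the C1 inhibitor Serping1, the central component C3, and factor B (Cfb) and properdin (Cfp) of the alternative pathway. The genes were taken by name, as those to which the RefSeq accession of an array probe mapped, out of 22911 genes on the array. All 9 had signals well above background on all 8 arrays, so none was lost to the filter on dim probes.

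The tumours grew from Pan02 cells, a mouse pancreatic cancer line, placed under the skin of B6 hosts, and were removed after 36 to 40 days. Control hosts were wild type (4 tumours). Mutant hosts carried loxP-flanked Ext1 on both alleles together with an S100a4-driven Cre recombinase (4 tumours), and no other allele or treatment, host age or sex is given for either group. Ext1 encodes a heparan sulfate polymerase, and the comparison asks how tumours differ when S100a4-lineage host cells lose it. The transplanted cells keep the gene in both groups, and S100a4 is active in macrophages and other leukocytes as well as in fibroblasts. In RNA of a whole tumour, fewer cells of a type and less RNA per cell cannot be told apart.

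Complement is a set of plasma and tissue proteins that mark surfaces for uptake or lysis. In the classical pathway C1q binds antibody or altered surfaces and activates the proteases C1r and C1s, which cleave C4 and C2 to form an enzyme that cleaves C3. In the alternative pathway deposited C3 binds factor B, which factor D cleaves, and properdin holds the resulting enzyme together. The liver makes most plasma complement, while in tumours C1q is known mainly from macrophages, properdin from myeloid cells, and C3, C4, factor B and the C1 inhibitor from fibroblasts and cancer cells too, where interferons and inflammatory cytokines raise several of them.

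A level is the log2 of a signal after centring on its array's 75th percentile, and a difference is the Mutant mean minus the Control mean of such levels. Values of single tumours are given in the order of tumours 1 to 4 of each group. Across the array 61.5% to 67.2% of probes were well above background. Limma called 0 of 16068 genes at an adjusted p under 0.05 (0%), while 467 genes (2.91%) had an unadjusted p under 0.05, 1.87% of all genes being higher and 1.03% lower in Mutant tumours. Ext1 itself read 3.04, 3.60, 3.64 and 2.02 in the Control hosts and 2.93, 3.00, 3.41 and 3.24 in the Mutant hosts, with Control 4 lowest (difference 0.07, exact two-sided permutation p = 0.943). Whether its probe lies in the deleted part is not known here, so it does not check the labels. S100a4 differed by 0.24 (exact two-sided permutation p = 0.486). Of 6 epithelial markers for the labelled cancer cells, all but Epcam, among them Krt8 and Krt18, were well above background on every array. Epcam was so on none. Control 4 stood apart from the other tumours: its fibroblast marker level, the mean of 12 genes each centred over the 8 tumours, was 2.25, against -1.38 to 0.96 elsewhere, and its skeletal muscle level was -3.43, against -2.19 to 3.01. It was the highest of the 8 tumours in 7 of the 9 complement genes. Its array also had the lowest 75th percentile, on which levels are centred, at a linear signal of 575.9 against 665.4 to 740.7 elsewhere. The 67.2% of probes well above background was its share too, the highest of the arrays. The part of these array properties in its levels was not tested.

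No complement transcript passed the test between the host groups. Of the 9 genes 5 lay above 0 and 4 below, from -0.26 for C3 to 0.65 for Cfb, with a median of 0.05, against a median of 0.01 over all 16068 genes. By limma 0 of 9 passed at an adjusted p under 0.05 (smallest adjusted p = 1.00, background 0%) and 0 of 9 at an unadjusted p under 0.05 (background 2.91%). The groups overlapped in all 9, while they did not overlap in 228 of the 16068 genes (1.42%, of all genes 0.716% higher and 0.703% lower in Mutant tumours). Without Control 4 the median was 0.35 and 8 of 9 genes lay above 0, and without Mutant 1 it was -0.08, so the direction of the median turned with single tumours. With array quality weights 8 of 9 genes lay above 0: C2 turned to 0.72, Serping1 to 0.84 and Cfp to 0.23, and Cfb moved to 1.34 (smallest limma adjusted p = 0.653).

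**Figure D1:**
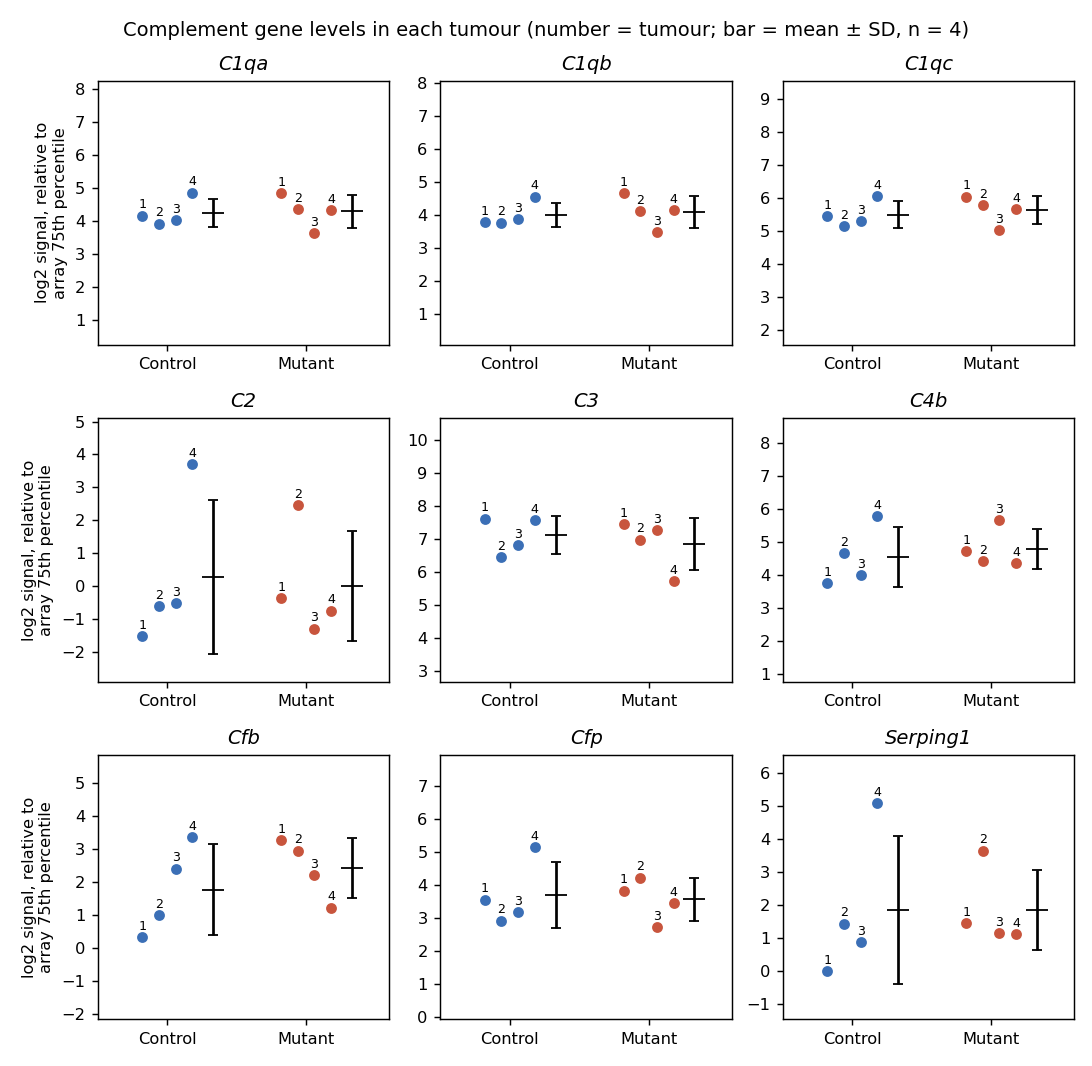
Level of each of the 9 complement genes in each tumour (points, numbered by tumour), as log2 signal relative to the array's 75th percentile, with the mean and SD of 4 tumours beside each group. Every panel spans 8 log2 units, so the narrow spread of the C1q chains (SD 0.38 to 0.50 in a group) can be set against that of C2 and Serping1, in which Control 4 and Mutant 2 stand high.

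C1qa, C1qb and C1qc encode the A, B and C chains that assemble into the C1q recognition molecule, and their genes lie next to one another in the mouse genome. C1qa read 4.17, 3.93, 4.03 and 4.87 in the Control hosts and 4.86, 4.36, 3.64 and 4.34 in the Mutant hosts. Control 4 and Mutant 1 were the high tumours and Mutant 3 the low one, and the groups overlapped over nearly their whole ranges. The difference was 0.05 (SE 0.30), a 1.03-fold ratio with a 95% interval of 0.640 to 1.67 (exact two-sided permutation p = 0.886, limma adjusted p = 1.00). Without Control 4 it was 0.26 and without Mutant 1 it was -0.14.

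C1qb read 3.78, 3.76, 3.87 and 4.55 in the Control hosts and 4.65, 4.12, 3.47 and 4.15 in the Mutant hosts. Its difference was 0.10, a 1.07-fold ratio with an interval of 0.684 to 1.69 (exact two-sided permutation p = 0.743), and it was 0.29 without Control 4 and -0.08 without Mutant 1. C1qc read 5.45, 5.15, 5.28 and 6.06 in the Control hosts and 6.04, 5.78, 5.03 and 5.65 in the Mutant hosts. Here the difference was 0.14, a 1.10-fold ratio with an interval of 0.712 to 1.70 (exact two-sided permutation p = 0.657). It was 0.33 without Control 4 and 0.00 without Mutant 1. In all 3 chains Mutant 3 was lowest and Control 4 or Mutant 1 highest, and the whole range over 8 tumours was 2.05-fold to 2.34-fold. The intervals leave room for a ratio of up to 1.70-fold in favour of Mutant tumours and down to 0.640-fold.

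The C1q chains kept the same order of tumours to a close degree. Centred on their own means, C1qa and C1qb differed by a root mean square of 0.08 over the 8 tumours and C1qa and C1qc by 0.08. The tumour order of C1qa and C1qc was identical. Macrophage and monocyte markers were all measured (16 of 16), and their mean centred level was -0.24, -0.29, -0.57 and 0.76 in the Control hosts and 0.39, 0.41, -0.47 and 0.00 in the Mutant hosts. The mean of the C1q chains was -0.16, -0.34, -0.23 and 0.54 in the Control hosts and 0.56, 0.13, -0.58 and 0.09 in the Mutant hosts. Control 4, Mutant 1 and Mutant 2 were above the mean in both and Control 1, 2, 3 and Mutant 3 below it, although Control 3 was the lowest for the markers and Mutant 3 for C1q. The part of macrophage content in the C1q levels was not tested. In 11 of these 16 markers the difference lay above 0, against 8419 of all 16068 genes, and its median was 0.11. By limma 0 of the 16 had an unadjusted p under 0.05 (background 2.91%).

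Genes most like the mean C1q profile were Myo1f, Nckap1l, Rac2, Madd and Smagp, at root mean square differences of 0.07 to 0.11 over the 8 tumours among 10613 genes compared. Csf1r, the receptor for the macrophage growth factor CSF1, was at place 7 and the macrophage surface marker Adgre1 at place 19. Other genes of the macrophage list ran differently: Cd14 was lowest in Control 4, at 3.40, and highest in Mutant 3, at 4.52, and Cx3cr1 was lowest in Control 4, at 1.83. These 4 markers were picked after their values were seen. Closeness was judged on these same tumours and carries no test.

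C4b encodes complement C4, which C1s cleaves and which then attaches covalently to surfaces. It read 3.74, 4.67, 4.00 and 5.77 in the Control hosts and 4.72, 4.41, 5.66 and 4.37 in the Mutant hosts. Control 4 and Mutant 3 were both high, and Control 1 was lowest. The difference was 0.25 (SE 0.48), a 1.19-fold ratio with an interval of 0.545 to 2.58 (exact two-sided permutation p = 0.629). It was 0.66 without Control 4, -0.04 without Mutant 3 and -0.02 without Control 1. The near-identical gene C4a, whose transcripts the C4b probes may also bind, named after its values were seen, read -1.17, 0.02, -1.01 and 0.68 in the Control hosts and -0.10, -0.78, 0.83 and -0.64 in the Mutant hosts, with the same 2 tumours highest (Control 4 and Mutant 3) and the same one lowest (Control 1). Values of C4b and C4a are therefore uncertain as measures of 1 gene alone.

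C2 encodes the serine protease that joins C4b in the classical C3 convertase. C2 read -1.51, -0.61, -0.50 and 3.71 in the Control hosts and -0.36, 2.45, -1.28 and -0.74 in the Mutant hosts. One tumour of each group, Control 4 and Mutant 2, lay far above the other 6, whose values ran from -1.51 to -0.36. The range over the tumours was 37.4-fold, and 98.0% of all genes tested had a smaller SD over the 8 tumours. The difference between the groups was -0.26 (SE 1.26), and its 95% interval, 0.110-fold to 6.36-fold, leaves the direction unsettled (exact two-sided permutation p = 0.800). Without Control 4 it was 0.89 and without Mutant 2 it was -1.07.

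Serping1 encodes the C1 inhibitor, which inactivates C1r, C1s and the lectin-pathway proteases. It read -0.00, 1.43, 0.86 and 5.08 in the Control hosts and 1.44, 3.65, 1.14 and 1.12 in the Mutant hosts. Control 4 and Mutant 2 were again the high pair, and Control 1 was lowest. The group means were 1.84 ± 2.24 and 1.84 ± 1.22 (SD, n = 4 each), a difference of -0.01 with an interval of 0.165-fold to 6.02-fold (exact two-sided permutation p = 1.00). Without Control 4 the difference was 1.07, and without Mutant 2 it was -0.61.

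Fibroblast markers, all 12 of which were measured, had their highest mean level in the same 2 tumours as C2 and Serping1. Their level was -0.55, -0.23, -1.38 and 2.25 in the Control hosts and 0.27, 0.96, -1.07 and -0.24 in the Mutant hosts. Not every marker had this order: Pdgfrb was lowest in Control 4, at 3.26, and Pdgfra was highest in Control 1, at 3.56. Both were picked after their values were seen. In 5 of the 12 the difference between groups lay above 0 and in 7 below, with a median of -0.01, and 1, Pi16, was lower at an unadjusted p under 0.05 by limma (background 1.03% lower). Dendritic cell markers (7 of 8 measured) were also highest in Control 4, at 1.68, and Mutant 2, at 0.81, and lowest in Control 2, at -1.26. T cell markers, at 1.23 and 0.66, macrophage markers, at 0.76 and 0.41, B cell markers, at 0.69 and 0.64, and the 2 measured adipocyte markers, at 0.68 and 0.75, were highest in the same 2 tumours, so the match was not particular to fibroblasts. The part of these cell types in the C2 and Serping1 levels was not tested.

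C3 encodes the component on which all activation routes converge. C3 read 7.62, 6.46, 6.83 and 7.57 in the Control hosts and 7.46, 6.98, 7.27 and 5.72 in the Mutant hosts. Mutant 4 was the lowest tumour, and the other 3 Mutant tumours lay within the Control range. The difference was -0.26 (SE 0.43), a 0.834-fold ratio with an interval of 0.415 to 1.67 (exact two-sided permutation p = 0.629), and without Mutant 4 it was 0.12. Control 4, the extreme tumour for C2 and Serping1, was close to Control 1 in C3.

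Cfb encodes factor B, the protease of the alternative C3 convertase, and its gene lies beside that of C2. It read 0.33, 1.00, 2.41 and 3.37 in the Control hosts and 3.29, 2.96, 2.23 and 1.23 in the Mutant hosts. Control 1 and Control 2 were lowest, followed by Mutant 4, and Control 4 was again highest. Cfb had the widest difference of the 9 genes, 0.65 (SE 0.73), or 1.57-fold with an interval of 0.487 to 5.04 (exact two-sided permutation p = 0.486, limma adjusted p = 1.00). The difference was 0.17 without Control 1 and 1.18 without Control 4, and it stayed above 0 with any single tumour left out.

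Interferons are known inducers of Cfb, C2 and Serping1, and of 15 listed interferon-stimulated genes 14 were measured. Their level was -1.46, -0.53, 1.25 and 0.11 in the Control hosts and -0.05, 0.46, -0.23 and 0.44 in the Mutant hosts. Control 1 and Control 2, the lowest tumours for Cfb, were lowest here too, while Control 3 was highest in this list and below Control 4, Mutant 1 and Mutant 2 in Cfb. Mutant 4, next lowest for Cfb at 1.23, stood at 0.44 in this list. C2 and Serping1 were also lowest in Control 1. In Control 3, however, C2 read -0.50 and Serping1 0.86, against 3.71 and 5.08 in Control 4. Of the 14 genes 11 lay above 0, with a median difference of 0.18. Acute-phase and NF-kB genes had a level of -0.05, -0.22, -0.30 and -0.88 in the Control hosts and 0.44, 0.49, 0.67 and -0.15 in the Mutant hosts, and 7 of 9 measured members lay above 0 with a median of 0.99. Lcn2, an iron-binding acute-phase protein, was the only gene of both lists with an unadjusted p under 0.05 (limma difference 1.98, background 2.91%). The lowest Lcn2 value, -3.45, was in Control 4. Whether either programme bears on the complement levels was not tested.

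Cfp encodes properdin, which stabilises the alternative convertase. It read 3.57, 2.93, 3.18 and 5.15 in the Control hosts and 3.84, 4.24, 2.74 and 3.46 in the Mutant hosts. Control 4 was highest, followed by Mutant 2, and Mutant 3 was lowest. The difference was -0.14 (SE 0.53), a 0.910-fold ratio with an interval of 0.391 to 2.12 (exact two-sided permutation p = 0.8286). Without Control 4 it was 0.35. Its profile was most like those of Rassf4, Xlr4a, Ggh, Batf and Slc8a1, at root mean square differences of 0.18 to 0.20 among 4866 genes compared.

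A further probe was available for C3, C4b, Cfb and Cfp, and the 5 other genes had 1 probe each. The second probes gave differences of -0.27 for C3, 0.28 for C4b, 0.60 for Cfb and -0.12 for Cfp, within 0.05 of the first in each case. The pooled SD between tumours of a group was 0.69 to 1.17 in these 4 genes.

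**Figure D2:**
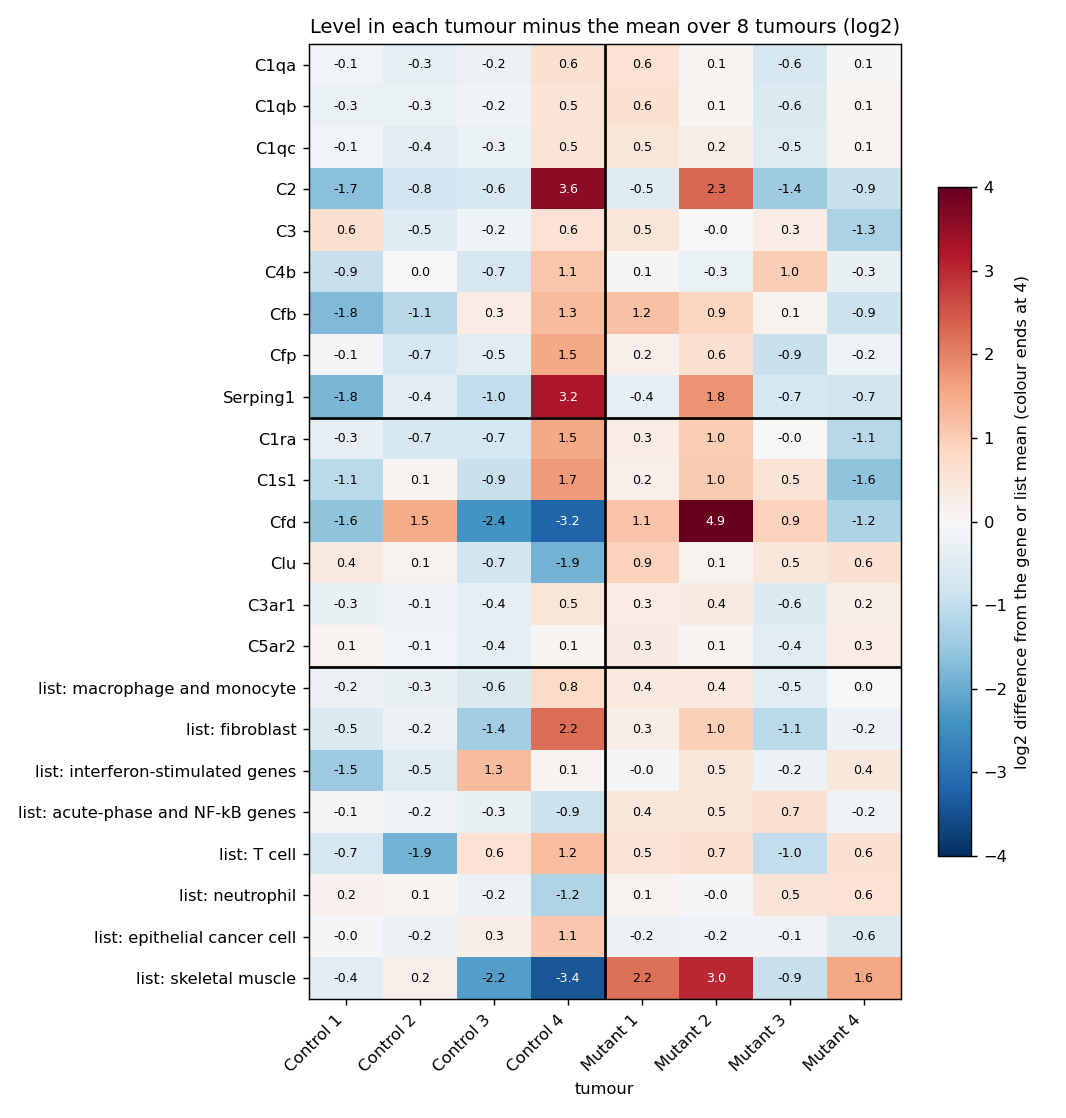
Log2 level in each tumour minus the mean over the 8 tumours for the 9 complement genes (top), 6 other complement genes (middle) and the mean of 8 marker lists (bottom), with red above and blue below the mean. Control 4 is red in all 9 complement genes and in the macrophage, fibroblast, T cell and epithelial lists, and blue in the muscle, neutrophil and acute-phase lists.

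Whether the 9 genes rose and fell together across tumours was tested over all 36 pairs, and few pairs passed. Every Pearson r was above 0, from 0.13 to 0.98, and all levels share the scaling of their array. Of the 36 pairs 5 passed at p under 0.05 by both Pearson and Spearman after Benjamini-Hochberg adjustment: the 3 pairs of C1q chains, and Cfp with C1qa and with C1qc. C1qa and C1qc had r = 0.98 and rho = 1.00 over 8 tumours (exact two-sided permutation p = 2.48e-05 and 4.96e-05, adjusted 0.000893 and 0.00179), the smallest values that permutations of 8 tumours can give for each. Without Control 4 and Mutant 3, the 2 tumours farthest from the median, r was 0.97. C1qc and Cfp had r = 0.88 and rho = 0.95 (exact two-sided permutation p = 0.00208 and 0.00114, adjusted 0.015 and 0.0137), and r was 0.83 without the same 2 tumours. C1qa and Cfp had r = 0.85 and rho = 0.95 (exact two-sided permutation p = 0.00655 and 0.00114, adjusted 0.0337 and 0.0137), and r was 0.69 without them. With median centring of the arrays the 3 C1q pairs alone passed. Neither Cfp pair passed without Control 3 or without Control 4, and C1qa with Cfp did not pass without Control 1 or without Mutant 4. Without Control 2, or without Mutant 3, the pair of C1qa and C1qc was the only one to pass.

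C2 and Serping1 had r = 0.98 and rho = 0.83 (exact two-sided permutation p = 0.00131 and 0.0154, adjusted 0.0118 and 0.0791), so the pair passed by Pearson alone, while without Control 3 it passed by both. Without Control 4 and Mutant 2 r was 0.72 over the other 6 tumours. C2 and Cfp had r = 0.88 (exact permutation p = 0.00568, adjusted 0.0337) and rho = 0.69 (exact permutation p = 0.0694, adjusted 0.156), but r was 0.23 without Control 4 and Mutant 2, so that relation rests on those tumours. C2 and Cfb, neighbours in the genome, had r = 0.67 (exact permutation p = 0.0684, adjusted 0.224) and rho = 0.88 (exact permutation p = 0.00724, adjusted 0.0435), with r = 0.59 without the same 2 tumours. C3 and C4b were in no pair that passed by either measure. Within groups, after removal of the group means, r was 0.99 for C1qa with C1qc and 0.98 for C2 with Serping1.

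**Figure D3:**
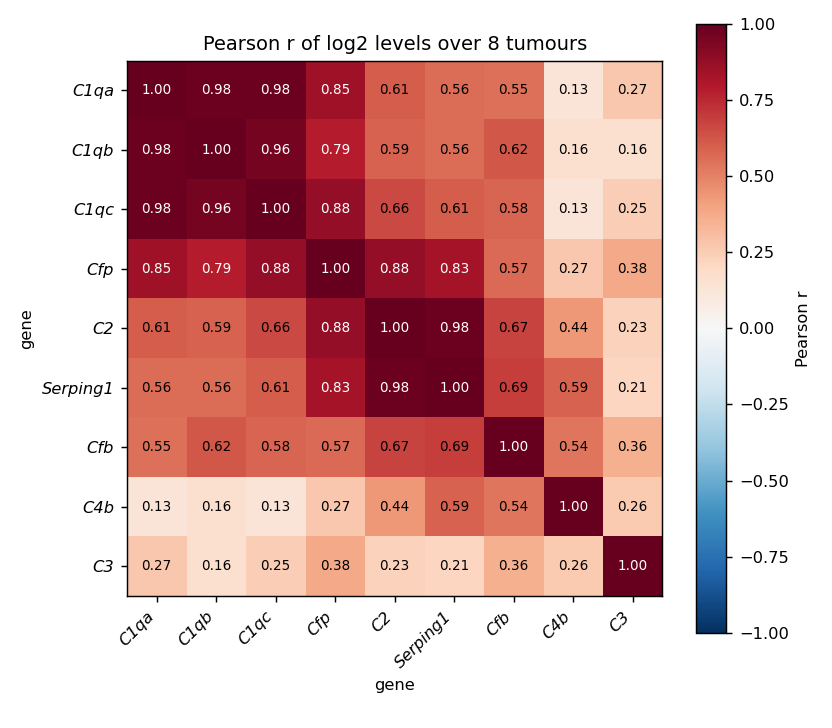
Pearson r of the log2 levels of each pair of the 9 complement genes over the 8 tumours, on a colour scale from -1 to 1. The C1q chains form a block at 0.96 to 0.98, C2 and Serping1 reach 0.98, and C3 and C4b stay at or below 0.59 with every other gene.

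As a profile, the mean of C2, C3, C4b, Cfb and Serping1 read -1.11, -0.56, -0.43 and 1.95 in the Control hosts and 0.16, 0.94, -0.15 and -0.81 in the Mutant hosts. The genes nearest to it were Ankrd29, Hopx, Ly6k, Jazf1 and Nbl1, at root mean square differences of 0.25 to 0.28 among 3516 genes compared. All 5 were highest in Control 4, and no role is assigned to them here. The genes averaged in the profile did not all run alike. C2 and Serping1 had r = 0.98, but C3 had r = 0.23 with C2, 0.21 with Serping1 and 0.26 with C4b. Levels were not scaled to equal spread before averaging. C2 and Serping1 (SD 1.89 and 1.67 over the 8 tumours) therefore weighed more in the mean than C3 and C4b (0.65 and 0.72).

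The other genes of the complement system, a list of 50, likewise held none that passed the test. All 50 were on the array, 33 passed the filter on dim probes, and 23 of these lay above 0 and 10 below, with a median difference of 0.09. By limma 0 of 33 passed at an adjusted p under 0.05 (background 0%), 0 of 33 at an unadjusted p under 0.05 (background 2.91%), and in 0 of 33 did the groups not overlap (background 1.42%).

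Of 15 recognition molecules and proteases of the classical and lectin pathways 10 were measured, 6 above 0 and 4 below, with a median of 0.07. Mbl1, Mbl2, Fcnb, Colec10 and Masp2, made largely in liver or bone marrow, were well above background on none of the 8 arrays. C1ra and C1s1, the proteases bound to C1q, were named because of that partnership and after their values were seen. C1ra read 1.73, 1.42, 1.37 and 3.57 in the Control hosts and 2.38, 3.08, 2.06 and 0.96 in the Mutant hosts (difference 0.09, from -0.22 to 0.61 with a tumour left out). C1s1 read 1.37, 2.53, 1.56 and 4.15 in the Control hosts and 2.64, 3.48, 2.95 and 0.83 in the Mutant hosts (difference 0.07, from -0.27 to 0.66 with a tumour left out). Both were highest in Control 4, next highest in Mutant 2 and lowest in Mutant 4, an order unlike that of the C1q chains, in which Mutant 3 was lowest. Each has a near-identical copy, C1rb and C1s2, whose transcripts its probe may also bind, so these values are uncertain too. The genes of smallest p were Masp1, a lectin-pathway protease (-0.32, from -0.50 to -0.10 with a tumour left out), C1rl (0.10, from 0.03 to 0.21) and Fcna, the recognition molecule ficolin A (-0.72, or 0.08 without Control 4).

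Cfd, or adipsin, the protease that cleaves factor B and a known product of fat cells, had the largest difference among the complement genes. It read -3.46, -0.36, -4.22 and -5.03 in the Control hosts and -0.71, 3.096, -0.92 and -3.08 in the Mutant hosts. Mutant 2 was highest by far, and Control 2 lay above the other 3 Mutant tumours, so the groups overlapped. The difference was 2.86, SE 1.44 (exact two-sided permutation p = 0.143, limma adjusted p = 1.00), and it was 1.69 without Mutant 2. Adipocyte markers gave a mixed picture beside it. Adipoq read -7.22, -3.21, -7.59 and -8.03 in the Control hosts and -4.88, -1.41, -6.26 and -7.25 in the Mutant hosts, well above background on 3 arrays, and Cidec was likewise above background on 3 and highest in Mutant 2, at 0.06. Adipoq, Cidec and Plin1 were each highest in Mutant 2 and next highest in Control 2, as Cfd was. Plin1 and Pck1, the latter also highest in Mutant 2, were above background on 1 array each. Of 6 adipocyte markers 2 passed the filter, Fabp4 and Lep. Their mean level ran from -1.30 to 0.68 in Control and from -0.14 to 0.75 in Mutant tumours. Lep varied little, from -2.03 to -1.71, so this mean mostly followed Fabp4. The mean of Fabp4 and Lep was 0.68 in Control 4, where Cfd was lowest, and -0.12 in Control 2, where Cfd was second only to Mutant 2. The part of fat tissue in the Cfd values was not tested.

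Of 9 soluble regulators 5 were measured, 4 above 0. Clu, or clusterin, which blocks assembly of the lytic complex, read 4.77, 4.55, 3.68 and 2.52 in the Control hosts and 5.35, 4.56, 4.88 and 5.02 in the Mutant hosts. Control 2, 3 and 4 lay below every Mutant tumour, and only Control 1, which was above Mutant 2, made the groups overlap. The difference was 1.08, SE 0.48 (exact two-sided permutation p = 0.0571, limma adjusted p = 1.00), 0.62 without Control 4 and 0.65 with array quality weights. Cfi, the protease that degrades C3b, differed by 0.63, but by 0.0013 without Control 3, 0.0285 with normexp and 1.29 without Control 4.

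Of 7 terminal components, which form the lytic pore, 3 were measured: C6 (0.09, or -0.35 with normexp background correction, above background on 4 of 8 arrays), C7 (-0.27, or -0.03 without Control 4) and C8g (0.29, or 0.10 without Control 4). C8a, C8b and C9 were well above background on none of the arrays and Hc, which encodes C5, on 2. Of 9 membrane regulators 5 were measured and all lay above 0, from 0.08 for Cr1l to 0.66 for Cd46, a cofactor for C3b cleavage, with Cr2, a receptor for C3 fragments, at 0.34. Cr2 was 0.0833 as the mean of its probes and 0.17 with normexp. Cd46 was above background on 5 arrays and turned to -0.0038 with normexp, and Cr1l turned to -0.05 without Control 1. All 9 receptors were measured, 5 above 0 and 4 below, with a median of 0.02. C3ar1, the receptor for the C3a fragment, differed by 0.17, C5ar2, a receptor for C5a, by 0.15 and Cd93 by 0.16. With a tumour left out they ranged from 0.06 to 0.38, from 0.05 to 0.32 and from 0.09 to 0.24. C3ar1 had the same extreme tumours as C1qa and C1qc, with Control 4 highest at 0.42 and Mutant 3 lowest at -0.63.

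**Figure D4:**
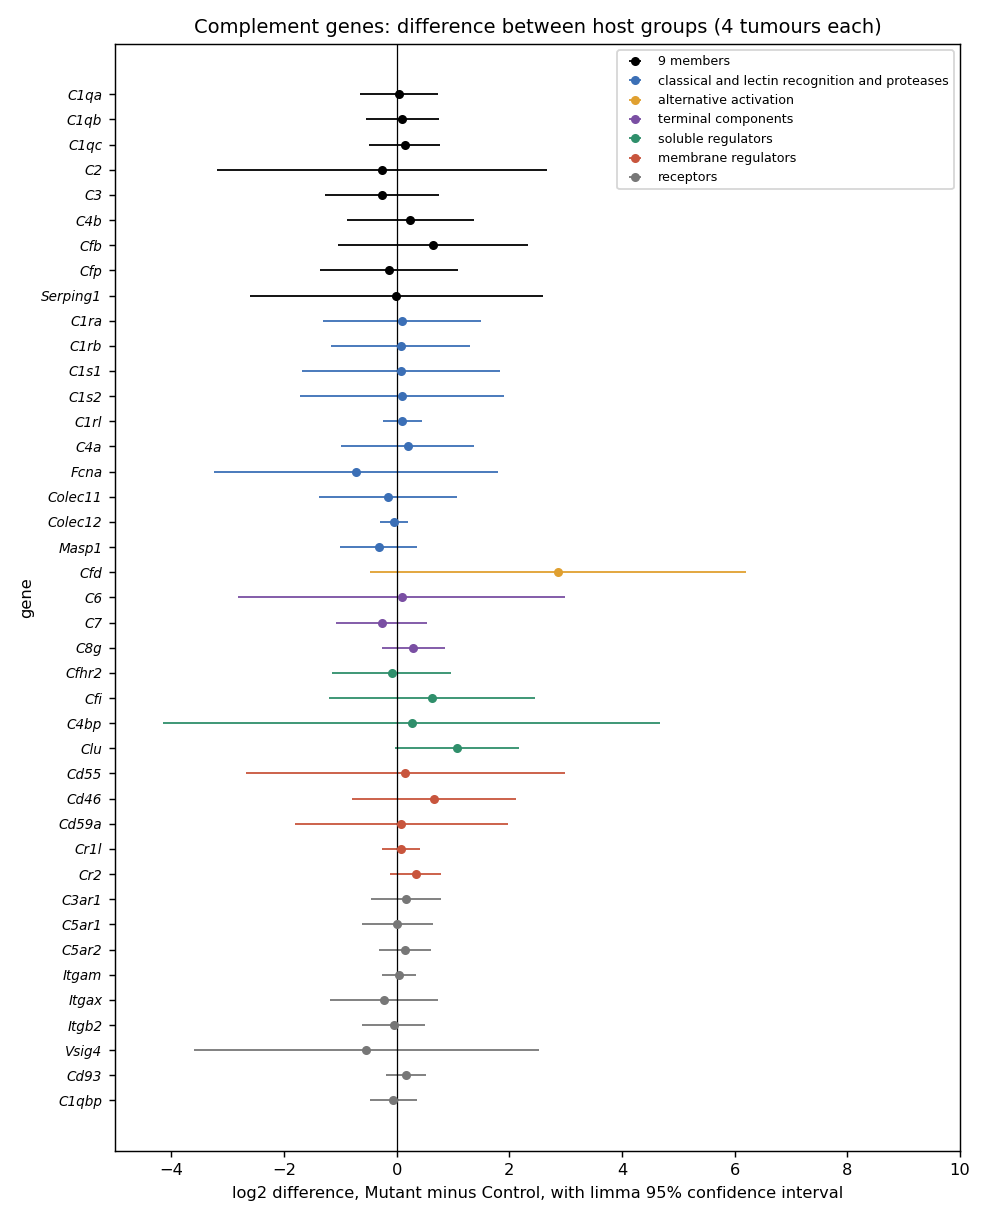
Log2 difference, Mutant minus Control, with limma's 95% confidence interval for the 9 complement genes (black) and other measured complement genes, coloured by role. Every interval shown crosses 0. The widest belongs to C4bp, which varied most between tumours of a group, followed by Cfd, Vsig4, C2, C6, Cd55 and Serping1. C4bp, Vsig4 and Cd55 are named here after their values were seen.

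Of 7 hepatocyte markers 3 were measured, with levels of -2.15 to 0.36 in the Control hosts and -0.22 to 1.53 in the Mutant hosts. Alb was well above background on 1 array and Apoa1 and Ttr on none, while Ahsg was above it on 8 and Cyp2e1 on 7. Cyp2e1 differed by 3.59 and was the 1 measured hepatocyte marker with an unadjusted p under 0.05 by limma (background 1.87% higher). T cell markers (8 of 8 measured) had levels of -1.88 to 1.23 in the Control hosts and -0.997 to 0.66 in the Mutant hosts, and neutrophil markers (8 of 10 measured) of -1.22 to 0.17 and -0.04 to 0.58. Of the neutrophil markers 1, Mmp8, had an unadjusted p under 0.05 by limma (difference 1.02, background 1.87% higher). B cell markers (4 of 6 measured) ranged from -0.81 to 0.69 and from -1.21 to 0.64, endothelial markers (8 of 8) from -0.44 to 0.62 and from -0.22 to 0.46. Skeletal muscle markers (9 of 9 measured) ran from -3.43 to 0.19 in Control and from -0.90 to 3.01 in Mutant tumours, and epithelial markers (5 of 6 measured) from -0.23 to 1.08 and from -0.57 to -0.13. All 9 muscle markers were above 0 (median 2.86, 6 at an unadjusted p under 0.05 by limma, background 1.87% higher) and all 5 epithelial markers below 0 (median -0.53, with Krt8 and Krt18 at an unadjusted p under 0.05, background 1.03% lower). Their part in the complement values was not tested.

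Position on the slide was balanced between the groups, with tumours 1 and 2 of each group in slide row 1 and tumours 3 and 4 in row 2. Within row 1 all 9 complement genes were higher in Mutant tumours, by 0.18 for C3 to 2.46 for Cfb. Within row 2, 8 of 9 were lower in Mutant tumours, down to -2.62 for C2, and C4b was the exception at 0.13. Row 2 holds Control 4: with Control 3 as its only Control tumour 6 of 9 were lower and 3 higher, from -0.68 for Cfb to 1.02 for C4b. In that comparison, added after seeing the data, C2 was at -0.51, Serping1 at 0.27 and C1qc at 0.06, and C1qa, C1qb and Cfp lay between -0.08 and -0.04. Values within a row rest on at most 2 tumours of each group and have no test. With all 8 tumours the sign differed between rows in 8 of 9 genes, and the pooled differences did not hold within them. With the row as a term in the fit the differences were as in the fit without it, which the balance of the rows fixes in advance.

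**Figure D5:**
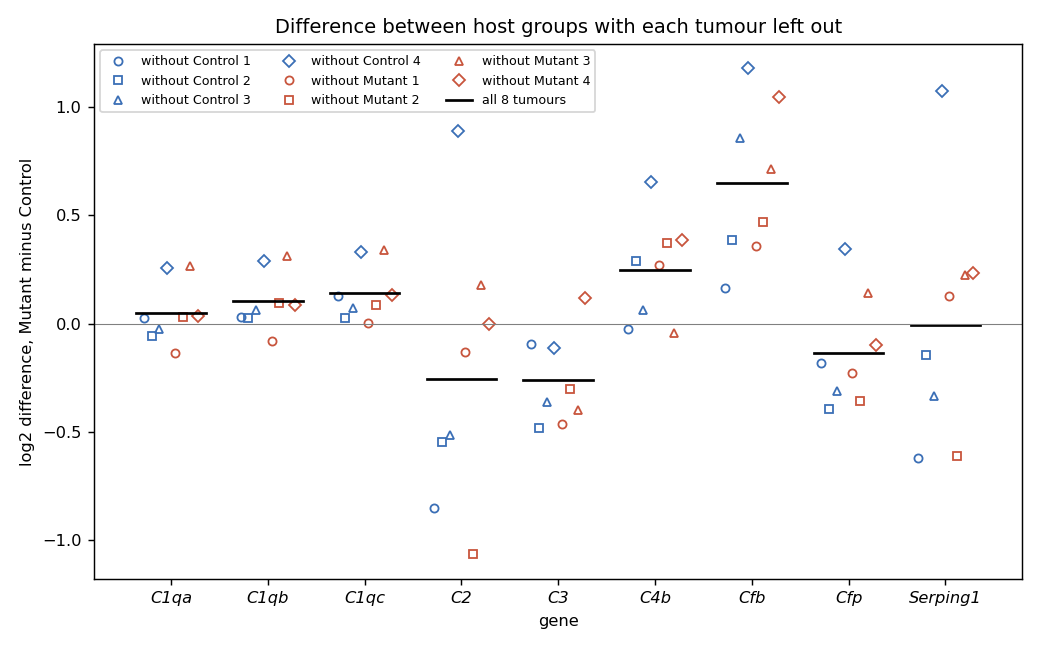
Log2 difference, Mutant minus Control, of each complement gene with all 8 tumours (black line) and with each tumour left out (blue for a Control tumour left out, red for a Mutant tumour). The markers for C2 spread from -1.07 to 0.89 and those for Serping1 from -0.62 to 1.07, while those for C1qc stay between 0.00 and 0.34.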

How the data were processed

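Total RNA of 8 tumours, 4 per group, was hybridised to 1-colour (Cy3) Agilent arrays on 1 slide. Per the file headers, the deposited intensity values come from Agilent Feature Extraction 10.7.3.1, background-subtracted and detrended within the array, with no scaling between arrays, while the submitters' processing notes name version 9.1. The deposited flag columns (other) have no unit. The authors' deposited value table holds the same intensity on a linear scale: 99.5% of probes equal the processed signal within 0.01%, with column medians of 52.8 to 61.8.

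Outlier spots were left out, spots of a probe averaged, and log2 values centred on each array's 75th percentile. Probes well above background on at least 4 arrays were kept, and the brightest kept probe stood for a gene (16068 genes). Names came from RefSeq accessions matched to the GRCm38.p6 gene table, which gave 1 gene for 32994 of 56605 probes, several for 0 and none for 23611. The array design names another build, so no coordinates are printed. Groups were compared with limma 3.58.1 (R 4.3.3, Python 3.11.15, pandas 2.3.3), Benjamini-Hochberg adjusted over all genes, and single values by two-sided exact permutation over 70 arrangements, whose smallest p is 0.0286. Pairs of genes were permuted over 40320 orders. The design text gives 4 hosts per group. The number of arrays limits the precision. The pipeline was tested on simulated data.

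The members and gene lists were chosen with earlier results of these data known. Named genes are the 9 members, Ext1, S100a4, up to 3 genes of smallest p per role, the 5 nearest genes per profile, and up to 2 genes of highest level and 2 of smallest p per marker list. Genes outside this rule are said to be so or are defining markers below the filter, and 1 gene that the rule names is not reported here. For nearness, a gene's SD had to reach 0.5 of that of the profile. Alternatives covered background correction, normalization, filters, probe choice, the deposited table, variance models, blocks for slide row and for replicate number, and omission of single tumours.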

Additional observations from a re-analysis of the deposited data

Results flagged for a closer look

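In C1qb, Control 4 stood 0.68 above the nearest other Control tumour on the log2 scale, a gap that made up 0.863 of the range of the 4 Control tumours. In Serping1, Mutant 2 stood 2.21 above the nearest other Mutant tumour, 0.873 of the range of the 4 Mutant tumours. Both shares exceed the 95% critical value of Dixon's test for 4 samples, and chance gives such a gap in about 1 in 20 of the 18 groups examined.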

How the results depend on the processing

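The count of genes called by limma stayed at 0 for all genes, for the 9 complement genes and for the other complement genes under all 20 alternatives. Among all genes the number at an unadjusted p under 0.05 ran from 195 without Mutant 1 to 1280 with array weights. For the other complement genes that number was 0 in the main fit but not under every alternative. It was at most 2, with slide row as a block (439 of all genes) and without Control 2 (972 of all genes). The replicate numbers of the labels did not pair the tumours (correlations of deviations 0.08, -0.31, 0.05 and -0.31). With the replicate block 0 genes were called. The median difference stayed at 0.05, which is fixed in advance because each replicate number occurs equally in both groups. The median of the 9 genes ranged from -0.08 to 0.35 with a tumour left out and was 0.38 with array weights. Array weights turned the differences of C2 to 0.72, Cfp to 0.23, Serping1 to 0.84 and Ext1 to -0.11, and normexp turned C6 to -0.35 and Cd46 to -0.0038. The cause was not tested. With a tumour left out, differences ranged from -0.14 to 0.27 for C1qa, -0.0819 to 0.31 for C1qb, -1.07 to 0.89 for C2, -0.48 to 0.12 for C3, -0.043 to 0.66 for C4b, -0.40 to 0.35 for Cfp, -0.62 to 1.07 for Serping1, -0.28 to 0.26 for Ext1, -0.67 to 1.28 for C6, -0.0461 to 0.17 for Cr1l -1.60 to 0.0818 for Fcna, -0.2245 to 0.6112 for C1ra and -0.2699 to 0.6559 for C1s1. Alternatives for the pairs of genes were chosen after seeing the data: 3 pairs passed with median centring, the 3 C1q pairs, and 1 to 5 with a tumour left out. Signals near background limit the dim genes, such as C6, Cd46 and Adipoq.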
